A study of Mus musculus with 5 samples.

Results

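The 3p strands of let-7 hairpins were followed in small RNA from extracellular vesicles (EVs), membrane-bound particles that cells release. The members were the 7 rows of the count table named mmu-let-7a-1-3p, mmu-let-7b-3p, mmu-let-7c-1-3p, mmu-let-7c-2-3p, mmu-let-7d-3p, mmu-let-7f-1-3p and mmu-let-7i-3p, out of 1966 rows of mature miRNAs. They were chosen by name, and the prefix for mouse is left out from here on. The vesicles came from cultured murine mesenchymal stem cells of C57BL/6-GFP transgenic mice. The cells of both groups were grown in serum and then kept in reduced-serum Opti-MEM for 48 h, from which small EVs were collected by ultracentrifugation after filtering. The study compared vesicles that were not freeze-dried (2 libraries) with vesicles frozen at -80 °C, freeze-dried overnight and rehydrated for 1 h (3 libraries). The protocols, the same text for both groups, name 25 mM trehalose for freeze-drying and among the storage buffers, so trehalose is not known to differ between the groups. The labels do not say which of several storage conditions the not freeze-dried vesicles had, or the age of the mice. They name a single source of cells and do not say whether replicates were separate cultures, so any p-value measures only the spread between these libraries, which may be technical.

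A miRNA hairpin is cut by Dicer into a short duplex whose strands are named 5p and 3p after their side of the stem. An Argonaute protein usually keeps 1 strand as the guide, which pairs with target mRNAs through its seed, bases 2 to 8, and the other strand is usually degraded. In the let-7 family, which promotes differentiation and restrains proliferation and which LIN28 holds back in stem cells, the 5p strand is the usual guide. The 3p strands have other seeds. Their level against the 5p strand in vesicle RNA can be set by strand selection, by stability and by export into vesicles, which these data do not separate.

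All 7 members matched a mature sequence in RefSeq (GRCm38.p6). They are shown because 4 of them share a seed, because 2 cannot be told apart by sequence, and because let-7d-3p stands alone in its seed. Capitals mark the seed, and sequences run 5′ to 3′.
let-7d-3p: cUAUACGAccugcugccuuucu
let-7b-3p: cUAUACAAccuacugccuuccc
let-7a-1-3p: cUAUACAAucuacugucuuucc
let-7c-2-3p: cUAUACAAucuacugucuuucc
let-7f-1-3p: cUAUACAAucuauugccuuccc
let-7c-1-3p: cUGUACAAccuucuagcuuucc
let-7i-3p: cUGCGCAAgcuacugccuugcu

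let-7a-1-3p and let-7c-2-3p were identical over all 22 bases. With let-7b-3p and let-7f-1-3p they carried the seed UAUACAA, which 1 other row of the table, miR-98-3p, also had. The seeds of let-7d-3p (UAUACGA), let-7c-1-3p (UGUACAA) and let-7i-3p (UGCGCAA) each belonged to 1 row among the 1675 rows matched to a RefSeq sequence. Counted from 1 at the 5′ end, let-7d-3p differed from let-7a-1-3p by A7G, U9C, A12G, U16C and C22U, of which A7G lies in the seed. The row of equal length nearest to let-7d-3p was let-7b-3p, with 4 differences.

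The 5p strands of these hairpins had the same seed, GAGGUAG, and were closer to each other. let-7d-5p differed from let-7a-5p by U1A and U16C, and it was the only one of the 6 that began with A rather than U, while all 7 members began with C. The let-7d hairpin is printed with both strands in capitals because it gave most of the 3p counts described below.
let-7d-5p: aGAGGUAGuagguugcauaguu
let-7a-5p: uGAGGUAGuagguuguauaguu
let-7d hairpin: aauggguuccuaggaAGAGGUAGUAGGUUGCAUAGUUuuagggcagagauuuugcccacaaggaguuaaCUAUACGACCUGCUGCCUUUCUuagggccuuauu

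In GRCm38 the let-7d hairpin lies at chr13:48536012-48536114 on the minus strand. let-7f-1 lies at chr13:48537829-48537917 and let-7a-1 at chr13:48538179-48538272, so the 3 hairpins sit within 2261 bp. Each lies in an exon of the non-coding RNA gene 6720427I07Rik (GENCODE M21). let-7c-2 (chr15:85706603-85706697) and let-7b (chr15:85707319-85707403) sit within 801 bp on the plus strand, each in an exon of Lncppara. let-7c-1 (chr16:77599657-77599750, plus strand) lies in an intron of Mir99ahg. let-7i (chr10:122985640-122985724, minus strand) lies in an exon of D630033A02Rik, annotated as a transcribed pseudogene.

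The libraries held between 131507 and 2914305 miRNA counts, and 2 libraries, not freeze-dried replicate 2 and freeze-dried replicate 3, held under 500000. All 8 mesenchymal marker miRNAs of the fixed list, among them miR-21a-5p and miR-143-3p, had counts in every library. They took 19.7% to 20.9% of counts in not freeze-dried and 14.6% to 15.9% in freeze-dried vesicles. Red cell markers took at most 0.120%, liver 0.0296%, endothelial 0.0403%, leukocyte 0.0278% and epithelial 0.00974% of any library. The part of the lower mesenchymal share in the differences below was not tested.

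let-7d-3p was the most abundant member in every library. Its TMM-normalised level (CPM, counts scaled to a common library size, with edgeR's TMM factors between libraries) was 4804 and 5765 CPM in the not freeze-dried replicates 1 and 2. In the freeze-dried replicates 1, 2 and 3 it was 6081, 9488 and 11672 CPM. The groups did not overlap, but the lowest freeze-dried library stood close to the higher not freeze-dried one. By mean level let-7d-3p ranked 29 among the 517 miRNAs with a count. These are bulk vesicle samples, in which fewer vesicles carrying a miRNA and less of it per vesicle cannot be told apart, and each level is relative to the other miRNAs of its library. As a read covers the whole 22-base strand, no length scaling is needed to compare members.

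let-7b-3p followed at a much lower level. It was at 178 and 613 CPM without freeze-drying and at 511, 534 and 905 CPM after it, from 80 to 1403 counts. The groups overlapped, since not freeze-dried replicate 2 stood above both deep freeze-dried libraries. let-7d-3p had 9.40 to 27.0 times the counts of let-7b-3p in the same library, whereas on the 5p side let-7b had 5.63 to 8.96 times the counts of let-7d. The order of these hairpins was therefore opposite on the 2 sides of the stem in 5 of 5 libraries.

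let-7c-2-3p was at 78.5 and 176 CPM in the not freeze-dried and at 336, 200 and 45.6 CPM in the freeze-dried libraries. let-7a-1-3p, identical to it in sequence, was at 35.3 and 92.0 CPM and at 202, 69.1 and 28.5 CPM. For both, the lowest and the highest library were freeze-dried ones, replicates 3 and 1. let-7c-2-3p had 80 and 23 counts without and 923, 515 and 8 counts with freeze-drying, against 36, 12, 556, 178 and 5 of let-7a-1-3p in the same order. The let-7c-2 row thus held 61.5% to 74.3% of the pair's counts. How reads that match both rows were assigned is not given in the sources used here, so neither row's level can be ascribed to 1 hairpin.

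The remaining 3 members were at or near 0. let-7c-1-3p and let-7f-1-3p had 0 counts in all 5 libraries, although the 5p strands with which they share a hairpin were abundant. This was not particular to them. Other hairpin names of at least 1000 CPM, such as miR-100, miR-196a and miR-31, also had a 3p share of 0% in every library. The limit for a count of 0 is given here as the share that 3 counts would make. Against 870525 counts of let-7c-5p, which both let-7c hairpins yield, a count of 0 allows a share of let-7c-1-3p of up to 0.000345%. Against 196807 counts of let-7f-5p, it allows up to 0.00152% for let-7f-1-3p. let-7i-3p had 3 counts in freeze-dried replicate 3, and 0 in the other 4 libraries, against 89222 counts of let-7i-5p. These limits, like the binomial intervals below, account for counting error alone, because PCR copies of 1 molecule can be counted more than once.

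**Figure D1:**
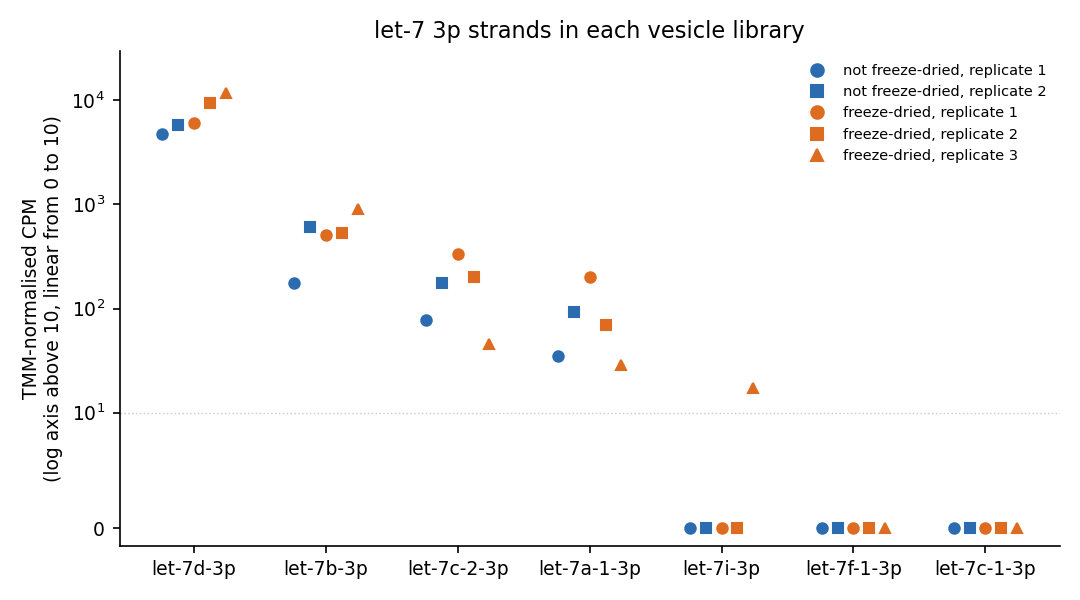
TMM-normalised CPM of the 7 members in each of the 5 libraries (log axis above 10 CPM, linear from 0 to 10), 1 point per library, with colour for the group and shape for the replicate. let-7d-3p lies between 4804 and 11672 CPM and the next member, let-7b-3p, between 178 and 905, while let-7f-1-3p and let-7c-1-3p lie at 0.

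Summed over the 7 members, 3p strands took 0.569% and 0.659% of all counts without freeze-drying and 0.672%, 1.07% and 1.16% after it. let-7d-3p alone made up 85.3% to 94.3% of that sum. The 5p strands of the same 6 hairpin names took 25.4% and 24.3% of all counts without freeze-drying and 35.6%, 29.5% and 35.1% after it. The groups thus did not overlap for either sum, with freeze-dried higher in both. Of the 3 hairpins in exon sequence of 6720427I07Rik, let-7d had 48831 counts of its 3p strand over all libraries and let-7f-1 had 0. The let-7a-1-3p row had 787, which cannot be ascribed to the let-7a-1 hairpin alone.

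The strand share, 3p counts as a percentage of 3p plus 5p counts of a hairpin name, sets the strands against each other within a library and so does not depend on depth or on scaling between libraries. For let-7d the 3p strand held 35.5% (95% exact binomial interval 34.7 to 36.3) and 33.5% (31.5 to 35.5) in the not freeze-dried replicates 1 and 2. It held 30.1% (29.7 to 30.5), 49.1% (48.7 to 49.5) and 37.4% (36.2 to 38.7) in the freeze-dried replicates 1, 2 and 3. The lowest and the highest share were both in freeze-dried libraries, with both not freeze-dried libraries between them. In freeze-dried replicate 2 the strands were nearly even, with 24423 counts of let-7d-3p and 25323 of let-7d-5p. That library had the second highest level of the 3p strand, 9488 CPM, and the second lowest of the 5p strand, 9837 CPM, where the other freeze-dried libraries had 14134 and 19502 CPM of let-7d-5p.

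The other hairpin names were far more one-sided. For let-7b the 3p share was 0.327% and 0.936% without freeze-drying and 0.540%, 0.602% and 0.818% after it, so the groups overlapped. let-7a ranged from 0.0539% to 0.342% and let-7c from 0.0292% to 0.219%, the lowest in each case in freeze-dried replicate 3 with 5 and 8 counts of the 3p strand. The 5p counts of let-7a, let-7c and let-7f cannot be split between the hairpins that share the name, so these are shares of a name and not of 1 hairpin. Means over the 5 libraries were 37.1% ± 7.2 for let-7d, 0.645% ± 0.239 for let-7b, 0.194% ± 0.119 for let-7a, 0.138% ± 0.078 for let-7c and 0.0200% ± 0.0448 for let-7i (SD, n = 5), with let-7f at 0. let-7d stood above let-7b, and let-7b above both let-7a and let-7c, in 5 of 5 libraries. let-7a also stood above let-7c in 5 of 5 libraries, though their means differed by less than their SD. Their 3p counts come from rows of identical sequence, so this order cannot be ascribed to the hairpins. let-7c stood above let-7i in 4 of 5 libraries, and let-7i and let-7f could not be ordered at these counts.

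**Figure D2:**
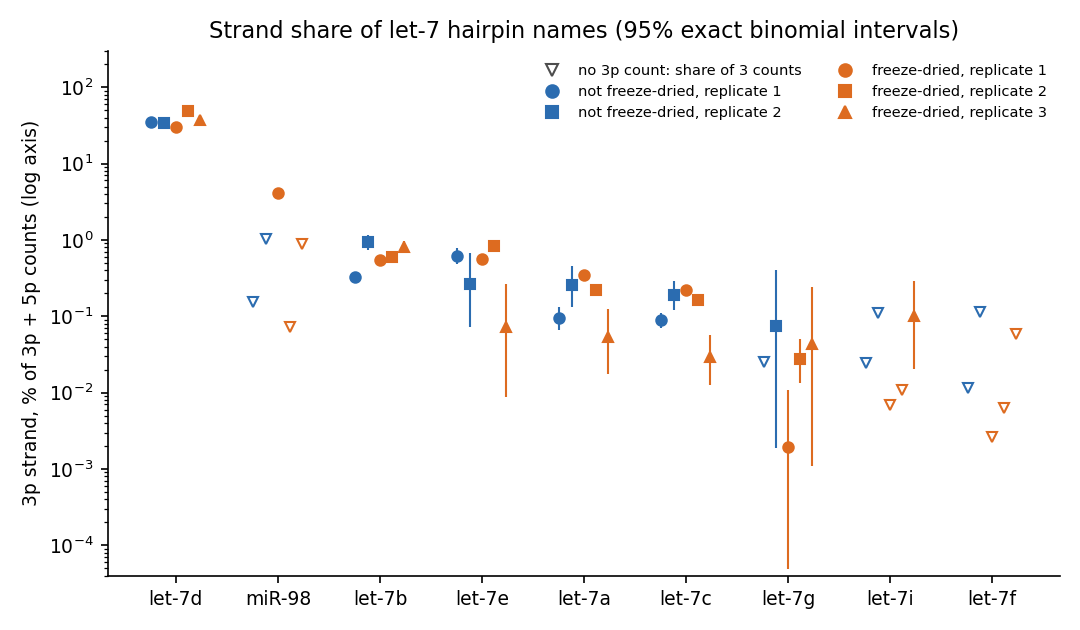
3p counts as a percentage of 3p plus 5p counts (log axis) for 9 let-7 family hairpin names, 1 point per library, with 95% exact binomial intervals (those of let-7d are smaller than the points). Open triangles mark libraries without a 3p count, at the share that 3 counts would give; let-7d lies between 30.1% and 49.1% and let-7b between 0.327% and 0.936%.

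Among all hairpin names with both strands in the table, 77 had at least 1000 CPM over both strands by raw totals. The median share of their less abundant strand was 0.487%, and 47 of the 77 had under 1%. It was at least 10% for 9 names and at least 25% for 5. let-7d ranked 3 in this order, after miR-151 and miR-423, and the other 8 let-7 family names were all under 1%. The 5 names nearest to let-7d with a lower mean 3p share were miR-145a (28.1%), miR-129 (15.2%), miR-532 (13.2%), miR-181a (8.93%) and miR-351 (8.03%). The 5 nearest with a higher one were miR-151 (52.8%), miR-423 (54.1%), miR-674 (70.1%), miR-28a (79.0%) and miR-199a (85.2%). The SD of the let-7d share over libraries, 7.23 percentage points, was the fifth highest of the 77, after miR-674 (14.3), miR-145a (8.77), miR-199a (8.51) and miR-181a (7.86). Such an SD is bound to be small for names with nearly all counts on 1 strand, as most of the 77 were. As a fold, the highest let-7d share was 1.63 times the lowest. That fold was 2.86 for let-7b, 6.35 for let-7a, 7.50 for let-7c and 11.5 for let-7e. The last 3 had only 5, 8 and 2 counts of the 3p strand in their lowest library.

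**Figure D3:**
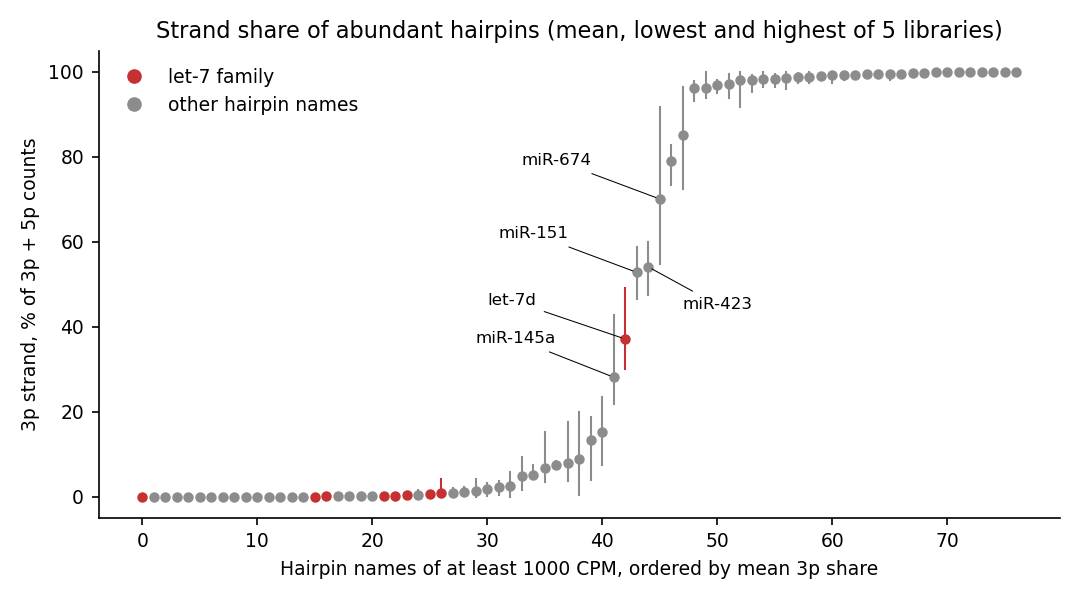
Share of the 3p strand in the counts of each of 77 hairpin names with at least 1000 CPM, in order of the mean, with points for the mean of the 5 libraries and lines from the lowest to the highest library. Of the 9 let-7 family names, drawn in red, let-7d lies at 37.1% and the other 8 lie under 1%.

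The study's question was whether freeze-drying changes the miRNA content of the vesicles. No member passed the test. edgeR's quasi-likelihood test was run on the 327 miRNAs that passed its low-count filter, 4 of the 7 members among them, each with counts in 5 of 5 libraries. Of all miRNAs tested, 0% were called higher and 0% lower at an adjusted p (Benjamini-Hochberg) under 0.05, and 2.75% had an unadjusted p under 0.05, of the members let-7d-3p only. DESeq2 and limma-voom also called 0 members, with 0 at an unadjusted p under 0.05. The edgeR unadjusted p of let-7d-3p was 0.046. It was lower without the low-count filter (0.031), with a depth term (0.018) and without freeze-dried replicate 1 (0.012). In the other alternatives with at least 2 libraries in each group it was above 0.05.

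let-7d-3p averaged 5284 ± 679 CPM in not freeze-dried vesicles (SD, n = 2) and 9081 ± 2818 CPM in freeze-dried vesicles (SD, n = 3). Its fitted fold change was 1.72 (log2 0.78, SE 0.34, 95% interval 0.02 to 1.55), with an edgeR adjusted p of 0.98. Over all settings tried this log2 fold change stayed between 0.53 and 1.02, and the adjusted p between 0.77 and 0.999. The intervals of the other 3 were wide on both sides of 0. let-7b-3p had a log2 fold change of 0.72 (interval -0.92 to 2.37), which was 0.15 without not freeze-dried replicate 1 and 1.82 without not freeze-dried replicate 2. The value was 0.62 (-2.30 to 3.55) for let-7c-2-3p and 0.68 (-3.18 to 4.53) for let-7a-1-3p, and these 2 changed sign without freeze-dried replicate 1, to -0.011 and -0.33.

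Fitted fold changes were above 1 for 4 of the 4 members tested, with a median log2 fold change of 0.70, against 51.1% of all miRNAs tested and a median of 0.02. Of these 4, let-7a-1-3p and let-7c-2-3p are identical in sequence, so their signs are not separate. Both turned negative without freeze-dried replicate 1. The groups did not overlap, with freeze-dried higher, for 1 of the 4, let-7d-3p, against 8.87% of all miRNAs tested (17.4% in either direction). On the guide side, the 5p strands of these hairpins had fold changes above 1 for 5 of 6 and below for let-7i-5p, with a median log2 fold change of 0.46. let-7b-5p (log2 0.71, SE 0.25) and let-7c-5p (0.67, SE 0.24) had values like those of the 3p strands and smaller errors, and let-7d-5p was at 0.52 (SE 0.34). For let-7b-5p and let-7c-5p, 2 of the 6, the edgeR unadjusted p was 0.017 and 0.018. The groups did not overlap for these 2, with freeze-dried higher, so let-7d-3p was not alone in this. None of the 6 was called. The summed 3p share of all counts averaged 0.614% ± 0.064 in not freeze-dried (SD, n = 2) and 0.967% ± 0.258 in freeze-dried vesicles (SD, n = 3), and the groups did not overlap. The two-sided exact permutation p was 0.2, which is the lowest value open to 2 against 3 libraries. Without let-7d the difference of 0.352 percentage points became 0.0311.

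Whether the strand ratio itself differed was tested by an interaction of strand and group in edgeR over 113 hairpin names with at least 10 counts of each strand. At an adjusted p under 0.05, 0% of names were called, at an unadjusted p under 0.05 3.54%, and none of the 4 names with a member among their 3p strands that were tested (let-7a, let-7b, let-7c and let-7d) was in either count. The fitted fold of the let-7d 3p to 5p ratio was 1.19 (95% interval 0.208 to 6.86, adjusted p = 0.999 by edgeR), and the direct log2 ratios gave 0.26 (exact two-sided permutation p = 0.8, smallest possible 0.2; n = 3 and 2). Without freeze-dried replicate 2 the sign turned, to -0.052. The fit shares its estimate of spread among all names, whose median SE was 3.61 on the log2 scale, so an unchanged ratio is not shown either. The ratio change was above 1 for 3 of these 4 names, against 50.4% of names tested, though the 3p counts of let-7a and let-7c come from rows of identical sequence. Of the family's names without a member, let-7e (log2 -0.14), let-7g (0.15) and miR-98 (4.75, SE 5.29) were also tested and not called. let-7b (log2 0.22), let-7a (0.12) and let-7c (-0.27) also had intervals from under -2 to above 2, and the ratios of the groups overlapped for all 4 names, against no overlap in 12.4% of names tested. Summed over the 6 names, the ratio of 3p to 5p strands was 0.0224 and 0.0271 without freeze-drying and 0.0189, 0.0364 and 0.0330 after it, again overlapping (exact two-sided permutation p = 0.6).

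**Figure D4:**
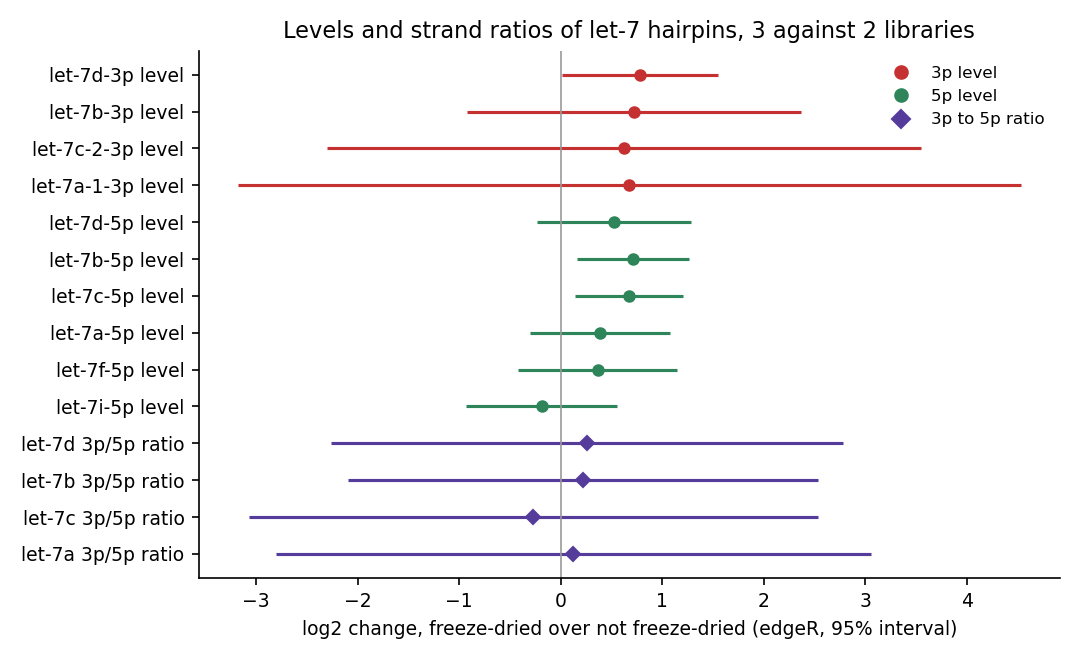
log2 change between freeze-dried (n = 3) and not freeze-dried (n = 2) libraries from edgeR, with 95% intervals, for the levels of the 4 members tested (red), of 6 let-7 5p strands (green) and for the 3p to 5p ratio of 4 hairpin names (purple). let-7d-3p lies at 0.78 and the ratio of let-7d at 0.26, and no value passed the adjusted threshold.

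Across the 5 libraries, the levels nearest to that of let-7d-3p among 88 other miRNAs of at least 1000 CPM were those of miR-423-5p, miR-669c-5p, miR-320-3p, miR-328-3p and miR-1a-3p. Their root mean square differences from it, on log2 CPM centred on each miRNA's mean, were 0.15, 0.20, 0.22, 0.25 and 0.26, against a median of 0.60 for all 88. miR-423-5p comes from a hairpin with nearly even strands, but the others do not. The mean 3p share was 54.1% for miR-423, 0% for miR-669c, 99.6% for miR-320 and 100% for both miR-328 and miR-1a. The miR-320 hairpin is made without Drosha. miR-423-5p was at 5553 and 6332 CPM in the not freeze-dried and at 5938, 9224 and 10124 CPM in the freeze-dried libraries. The partner strand let-7d-5p came ninth, at 0.39, after let-7b-5p at 0.27 and let-7c-5p at 0.35. All of these share the same 5 libraries, and the order is a description only.

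**Figure D5:**
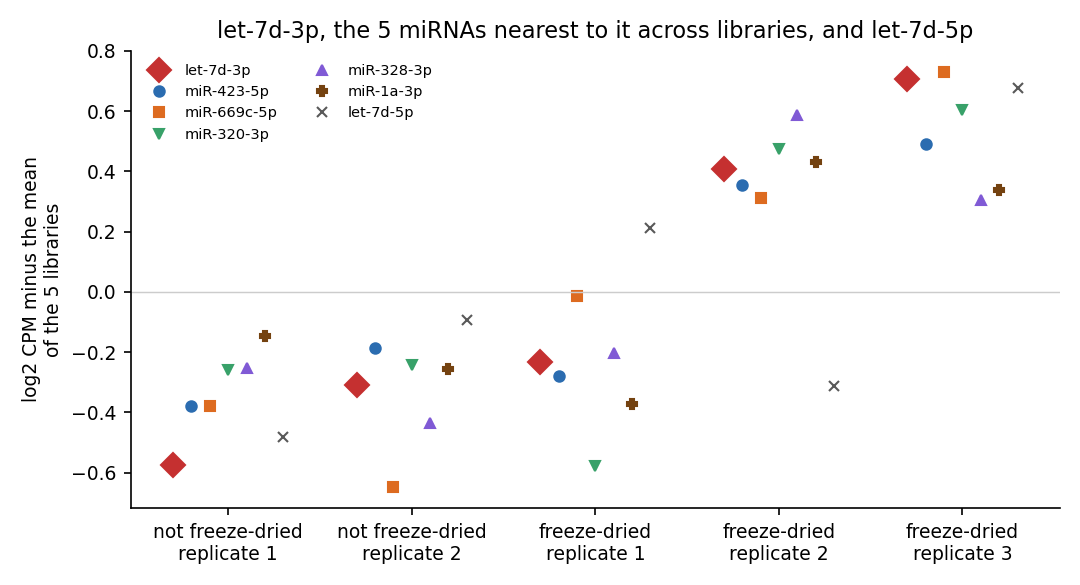
log2 CPM of let-7d-3p, of the 5 miRNAs nearest to it and of let-7d-5p, each minus its own mean over the 5 libraries; each symbol is 1 miRNA in 1 library, and the symbols of a library are set side by side. let-7d-3p and the 5 others lie above their mean in freeze-dried replicates 2 and 3, while let-7d-5p lies below it in replicate 2.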

How the data were processed

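Small RNA libraries were made from 5 vesicle samples with a NEXTFLEX kit and selected by size on a gel, per the labels' protocols. The values are raw counts for each mature miRNA, deposited by the authors in 1 table with no other columns of values. Tools named in the submitters' processing notes, without roles, are cutadapt 2.3, featureCounts 1.5.0-p1, Bowtie 1.1.2, FastQC and bcl2fastq 2.20, with the build GRCm38; the handling of reads with several matches, strand and duplicates is not given in the sources used here. Groups came from sample titles. Levels were fitted with R 4.3.3 and edgeR 4.0.16 (TMM factors, filterByExpr, robust quasi-likelihood F test), with Benjamini-Hochberg adjustment over all miRNAs tested. The strand ratio was fitted with library as a term, 1 row per hairpin name (numbered copies summed) and at least 10 counts per strand. SEs were derived from each log2 change and the square root of its F. Single values were compared with exact permutation tests (scipy 1.17.1). The fits were checked on simulated counts with known changes. For the strand ratio the simulated spread was a set value and not estimated from these data. That check therefore does not cover the spread seen here. Alternatives were other normalizations, DESeq2 1.42.0, limma 3.58.1, other filters, thinning, leaving out libraries, a depth term and a replicate block. Named miRNAs were the members, the other let-7 rows, the 5 most like let-7d-3p, the 5 hairpin names next to let-7d on each side and co-transcribed miRNAs. Members and lists were chosen with earlier results of these data known. Sequences are RefSeq's (GRCm38.p6).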

Additional observations from a re-analysis of the deposited data

How the results depend on the processing

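The count of 0 called members held under all 15 alternatives for levels, and the count of 0 called hairpin names of the members under all 10 for the strand ratio. Not all members were tested under each: with 50 counts in every library of 1 group only let-7b-3p and let-7d-3p were. Over all miRNAs, the replicate block called 4 of 327, and the other alternatives with at least 2 libraries in each group called 0. For the ratio, the replicate block called 2 of 113 names, and the others of that kind 0. A count of 0 was thus usual for the whole table and is not particular to the members. The log2 fold change of let-7d-3p was 0.62 to 1.02 without 1 library and 0.53 with the replicate block, where its edgeR adjusted p was 0.999. Scaling to totals alone moved the median log2 fold change of all miRNAs from 0.02 to -0.094, and that of let-7d-3p to 0.66. Replicate numbers made only 2 pairs, with deviations correlated at 0.17 and -0.12, so the block cannot show a pairing. Without 1 library, let-7a-1-3p ranged from -0.33 to 1.47 and let-7c-2-3p from -0.011 to 1.28 (both negative without freeze-dried replicate 1), and let-7b-3p from 0.15 to 1.82. Again without 1 library, the log2 change of the ratio ranged from -0.61 to 0.84 for let-7a, -0.55 to 0.98 for let-7b, -0.86 to 0.54 for let-7c and -0.052 to 0.53 for let-7d. let-7a was negative without not freeze-dried replicate 1 (-0.61), freeze-dried replicate 1 (-0.44) or 2 (-0.11), let-7b without not freeze-dried replicate 1 (-0.55). let-7c was positive without not freeze-dried replicate 2 (0.29) or freeze-dried replicate 3 (0.54), at 0.54 with the replicate block in the arm term and at 1.09 in the 3 deep libraries alone, where let-7a was at 1.54. The directly computed log2 ratio change of let-7d, 0.26, ranged from -0.052 (freeze-dried replicate 2 left out) to 0.53 (freeze-dried replicate 1 left out) and was 0.25 with libraries thinned to the smallest total count. The cause of these turns was not tested. A library left out of the not freeze-dried group leaves 1, assumed to vary as the others do.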

Other observations

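Outside the 7 members, 4 more let-7 3p rows and miR-98-3p are in the table. For let-7e-3p there were 69 and 4 counts without freeze-drying and 275, 271 and 2 after it, or 0.0725% to 0.836% of let-7e counts. let-7g-3p had 13 counts in all, against 103562 of let-7g-5p. let-7a-2-3p and let-7f-2-3p had 0 in every library. miR-98-3p, which shares the seed UAUACAA with 4 members, had 284 counts in freeze-dried replicate 1 and 0 in the other 4 libraries. Among them was freeze-dried replicate 2, with 4166 counts of miR-98-5p. There the 95% exact binomial interval of the 3p share ran from 0 to 0.0885%. In freeze-dried replicate 1 that share was 4.13% (95% exact binomial interval 3.67 to 4.63).

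let-7c-1, whose 3p strand had no count, lies in Mir99ahg with miR-99a and miR-125b-2. miR-99a-3p also had 0 counts in all 5 libraries, beside 683 to 13340 counts of miR-99a-5p. miR-125b-2-3p was counted in every library, with 127 and 9 counts without freeze-drying and 20, 212 and 16 after it. Its level was 7.28 CPM in freeze-dried replicate 1, the deepest library, and 69.0 to 125 CPM in the other 4.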
